A study of Homo sapiens with 12 samples.

Results

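The small subunit ribosomal protein genes encode the proteins of the 40S subunit, the part of the cytosolic ribosome that binds mRNA and reads its codons. They were taken as every probe whose annotated gene symbol begins with RPS and a digit, or is RPSA or FAU, without the RPS6K kinases, the RPS4Y genes and the pseudogenes. This gave 45 probes of 27 genes, out of 14804 tested probes and 9203 named genes. All 45 probes were detected on all 12 arrays, so the filter on detection removed none of them. Each probe is given apart, and for counts over genes the brightest probe of a gene stands for it.

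The arrays were Illumina HT12 bead chips of RNA from Caco-2, a human colon carcinoma cell line, after reduction of the zinc finger protein ZNF658 by siRNA at 10 nM. There were 4 groups of 3 arrays, all transfected with the same lipid reagent: ZNF658 siRNA 1 and control siRNA 1, both from Ambion, and ZNF658 siRNA 2 and control siRNA 2, both from Dharmacon. ZNF658 siRNA 2 was a mixture of several siRNAs per the supplementary methods. The study's supplementary list of siRNAs gives for the arrays the Dharmacon control alone, so the matched control of ZNF658 siRNA 1 rests on the sample labels. The gene table gave no tested probe the name ZNF658, and its level in these cells was therefore not measured here. The labels do not say whether the 3 arrays of a group came from separate cultures, and the P values then measure only the spread between these arrays. In bulk RNA, fewer cells of a type and less RNA per cell cannot be told apart.

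Between 14454 and 16167 probes were detected per array, and mean raw intensity ranged from 462 to 746. Of 10 measured colon epithelium and enterocyte markers, 9 were detected on all 12 arrays, CDX1 and CDX2 among them, and GPA33 on 1. Of 14 measured trophoblast markers, 12 were also detected on all 12 arrays, with CGA at 10.95 to 12.03 on the log2 scale in the siRNA 1 pair and 8.67 to 10.08 in the siRNA 2 pair. Summed over the trophoblast list, the level was 13.59 to 13.92 with ZNF658 siRNA 1, 13.96 to 14.02 with control siRNA 1, 12.57 to 12.69 with ZNF658 siRNA 2 and 12.44 to 13 with control siRNA 2. The trophoblast sum thus separated the 2 suppliers' pairs, and its part in the values below was not tested. Not every marker of the list did so. GATA3 read 9.93 to 10.40 in the siRNA 1 pair and 9.93 to 10.65 in the siRNA 2 pair. TFAP2A, PGF and INSL4 also overlapped. KISS1, detected on 6 arrays, was higher in the siRNA 2 pair (5.78 to 6.89, against 4.68 to 5.73). The remaining measured markers were higher in the siRNA 1 pair without overlap. Over all tested probes, replicate 3 of ZNF658 siRNA 2 was closer to an array of control siRNA 2 (r up to 0.989) than to the other arrays with that siRNA (r at most 0.983). The converse held for replicate 3 of control siRNA 2 (r up to 0.973 with ZNF658 siRNA 2, at most 0.948 within the group). In the siRNA 1 pair, replicate 3 of ZNF658 siRNA 1 was likewise closer to an array of control siRNA 1 (r up to 0.990) than to its own group (at most 0.981), and replicate 1 of control siRNA 1 to an array of ZNF658 siRNA 1 (r up to 0.990, at most 0.985 within the group). Values without these arrays are given beside some of the results they touch.

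The 40S subunit is built in the nucleolus from 18S rRNA and its proteins, which assemble in steps into a body, a platform and a head before the particle is exported and finished in the cytoplasm. Cells keep the proteins in matched amounts, largely by translating their mRNAs together. Those mRNAs begin with a cytosine and a run of pyrimidines, the 5′ terminal oligopyrimidine (TOP) tract, through which growth signals reach their translation. Several 40S proteins, RPS26, RPS27, RPS27A and RPS29, bind zinc, and ZNF658 has been studied as a factor that acts at the zinc transcriptional regulatory element (ZTRE), a pair of half-sites that mirror each other.

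The annotated starts of the genes described below are shown because the TOP tract is the sequence feature that 40S genes are known to share. Of the 27 genes, 24 had a promoter in the RefSeq table (GRCh38.p14; 250 bases before to 50 bases after the annotated start). A C followed by at least 4 further C or T bases stood exactly at the annotated start in 17 of the 24, against 4.07% of all 35116 promoters in the table. The 7 genes without it were RPS4X, RPS7, RPS15, RPS26, RPS27L, RPS28 and RPS29. Within the bases from 10 before to 15 after the start, 21 of the 24 held such a tract, RPS7, RPS15, RPS26 and RPS28 included, against 33.5% of all promoters. The first 2 sequences are the starts of RPS26 and RPS28, without a tract at the annotated base, and the others those of RPS18, RPS21, RPS9 and RPS19, with the tract in capitals. Each holds the 40 bases before the start and 25 bases from it onward, on the strand of the gene.
RPS26 (chr12:56041878-56041942, plus strand): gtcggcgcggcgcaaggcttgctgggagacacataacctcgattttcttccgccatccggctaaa
RPS28 (chr19:8321456-8321520, plus strand): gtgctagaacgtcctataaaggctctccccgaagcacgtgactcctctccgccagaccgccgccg
RPS18 (chr6:33272035-33272099, plus strand): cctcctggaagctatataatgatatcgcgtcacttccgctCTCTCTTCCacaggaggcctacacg
RPS21 (chr20:62387063-62387127, plus strand): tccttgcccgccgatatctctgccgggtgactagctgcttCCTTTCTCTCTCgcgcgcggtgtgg
RPS9 (chr19:54200818-54200882, plus strand): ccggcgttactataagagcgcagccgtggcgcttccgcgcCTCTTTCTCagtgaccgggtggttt
RPS19 (chr19:41860215-41860279, plus strand): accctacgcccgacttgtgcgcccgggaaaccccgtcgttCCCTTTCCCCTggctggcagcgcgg

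Among these promoters, 1 member, RPS19, held the ZTRE with 2 half-sites of 7 bases at most 50 bases apart, against 9.53% of all promoters in the same window. The motif mirrors itself, so both strands were covered. The match that begins first lay 168 to 117 bases before the annotated start of RPS19, and its half-sites are in capitals below. With the right half-site shortened by 1 base, as the motif was printed for the study's own search, and both strands read, RPS14 and RPS19 held it, against 22.2% of all promoters. The study's search read a longer stretch on either side than the window here, so its counts are not comparable with these. A match is a description of the letters and not a bound site.
RPS19 (chr19:41860087-41860138, plus strand): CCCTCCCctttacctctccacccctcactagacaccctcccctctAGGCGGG

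The first comparison set ZNF658 siRNA 1 against control siRNA 1. No small subunit probe was called higher or lower, where a call took an adjusted P under 0.05 together with a 1.2-fold difference. Of all tested probes, 0.0135% were called. The 27 genes were evenly split, with 14 above and 13 below 0 and a median log2 fold change (log2FC) of 0.02, against −0.01 over all named genes. Of the probes, 23 of 45 lay above 0, against 48.6% of all tested probes. At an unadjusted P under 0.05 there were 3 member probes higher and 1 lower, where 4.32% of all tested probes were higher and 2.89% lower. By brightest probe, the largest differences were the higher values of RPS26, RPS28, RPS18 and RPS27L.

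RPS26 sits at the channel through which mRNA leaves the 40S subunit and binds zinc. Its brightest probe read 12.43, 12.80 and 11.96 on the log2 scale with ZNF658 siRNA 1, against 12.00, 11.70 and 11.50 with control siRNA 1. Replicates 1 and 2 of the ZNF658 siRNA lay above every control array, while replicate 3 lay just below the highest of them. The log2FC was 0.66 (standard error, SE, 0.20, 95% interval 0.24 to 1.09, limma adjusted P = 0.69). A second, dimmer RPS26 probe read 8.42, 8.38 and 8.44 with ZNF658 siRNA 1, against 8.58, 8.25 and 8.14 with its control, a log2FC of 0.09 (SE 0.23).

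RPS28 is a protein of the 40S head near the mRNA exit. It read 13.51, 13.54 and 13.25 with ZNF658 siRNA 1, against 13.42, 12.78 and 12.64 with control siRNA 1. Control replicate 1 stood within the range of the ZNF658 siRNA, and the other controls lay well below it. The log2FC was 0.49 (SE 0.18, adjusted P = 0.69). For both genes the arrays that overlapped, replicate 3 of ZNF658 siRNA 1 and replicate 1 of control siRNA 1, are those that lay closer to the other group over all probes. With both left out, a choice made after seeing the data that by its construction widens the gap, the log2FC was 1.02 for RPS26 and 0.81 for RPS28 (adjusted P = 0.12 each).

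RPS18, a head protein at the interface with the large subunit, read 13.85, 13.98 and 13.75 with ZNF658 siRNA 1, against 13.64, 13.40 and 13.38 with its control. It was the only member probe whose groups did not overlap in this comparison, against 8.19% of all tested probes higher and 8.46% lower without overlap. The log2FC was 0.39 (SE 0.12, adjusted P = 0.69).

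RPS27L is a close paralog of RPS27 that p53 induces. It read 11.57, 11.80 and 11.74 with ZNF658 siRNA 1, against 11.65, 11.44 and 11.15 with control siRNA 1. One control array lay among the ZNF658 siRNA arrays, and the log2FC was 0.29 (SE 0.17, adjusted P = 0.72).

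By brightest probe, the lowest values of the comparison belonged to RPS9 and RPS19. RPS9, a body protein whose yeast counterpart affects the accuracy of decoding, read 13.19, 13.03 and 13.60 with ZNF658 siRNA 1, against 13.63, 13.47 and 13.57 with its control. Its log2FC was −0.29 (SE 0.13, adjusted P = 0.69), and replicate 3 lay within the control range. The other RPS9 probe had −0.06 (SE 0.10). RPS19, a head protein mutated in Diamond-Blackfan anaemia, read 15.03, 14.39 and 15.14 with ZNF658 siRNA 1, against 15.11, 15.20 and 15.10 with control siRNA 1. Replicate 2 alone stood far below the rest, and the log2FC was −0.28 (SE 0.16, adjusted P = 0.72).

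The second comparison set ZNF658 siRNA 2 against control siRNA 2. Again no member was called, as was no probe of the whole table (0%). Without both replicates 3 of this pair, 2.09% of all tested probes were called and still no member, the smallest adjusted P of a member being 0.061. Those arrays were picked by their likeness to the other group in these same data, which can widen gaps between the groups. With all arrays, the values leaned downward, with 20 of 27 genes and 33 of 45 probes below 0, where the probes' share is read against 49.9% of all tested probes. The median over the genes was −0.10, against 0.00 over all named genes. Taken per array, the median deviation of the genes from their own means was −0.036, −0.047 and −0.051 with ZNF658 siRNA 2, against 0.065, 0.029 and 0.014 with control siRNA 2. These 6 values did not overlap. In the siRNA 1 pair the same medians overlapped, at −0.038, −0.029 and 0.121 with ZNF658 siRNA 1 against 0.099, −0.023 and −0.009. The large subunit genes overlapped in the siRNA 2 pair, at −0.032, −0.012 and 0.032 with ZNF658 siRNA 2 against 0.074, 0.030 and −0.077. With median scaling in place of quantile normalization, the small subunit median with siRNA 2 was −0.18, with all 27 genes below 0. For the mean of both siRNAs it was −0.11, with 6 genes above and 21 below. In this pair 9 of the 45 probes were lower without overlap between the groups and none was higher, against 4.49% of all tested probes lower and 4.99% higher. Without a test of the list, these counts describe these arrays only. At an unadjusted P under 0.05 there were 4 member probes, all lower, where 2.36% of all tested probes were lower at that level.

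RPS26 was again the furthest from 0, now on the other side. It read 11.60, 11.84 and 11.88 with ZNF658 siRNA 2, against 12.05, 12.40 and 12.51 with control siRNA 2, so that every ZNF658 siRNA array lay below every control array. The log2FC was −0.55 (SE 0.20, 95% interval −0.97 to −0.12, adjusted P = 0.84). The dimmer probe read 8.35, 8.00 and 8.85 with ZNF658 siRNA 2, against 9.11, 8.67 and 8.33 with its control, with overlap and a log2FC of −0.30 (SE 0.23).

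RPS21, a small protein of the body and platform, read 12.22, 12.47 and 12.40 with ZNF658 siRNA 2, against 12.59, 12.65 and 12.92 with control siRNA 2. Its groups did not overlap, and its log2FC was −0.36 (SE 0.17, adjusted P = 0.88). With siRNA 1 the same probe read 12.30, 12.34 and 12.78, against 12.68, 12.53 and 12.11 with control siRNA 1, a log2FC of 0.04 (SE 0.17). The arrays of that pair were fully interleaved.

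RPS28 read 12.91, 13.03 and 13.39 with ZNF658 siRNA 2, against 13.35, 13.49 and 13.38 with control siRNA 2. Replicate 3 reached the control range, and the log2FC was −0.30 (SE 0.18, adjusted P = 0.92). Without both replicates 3 it was −0.46 (adjusted P = 0.20). RPS19 read 14.91, 14.84 and 14.56 with ZNF658 siRNA 2, against 14.93, 14.83 and 15.06 with its control, a log2FC of −0.17 (SE 0.16, adjusted P = 0.96). As with siRNA 1, a single array of the ZNF658 siRNA, here replicate 3, stood below all the others. RPS18 had −0.16 (SE 0.12), and RPS27L −0.16 (SE 0.17), both with overlap.

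**Figure D1:**
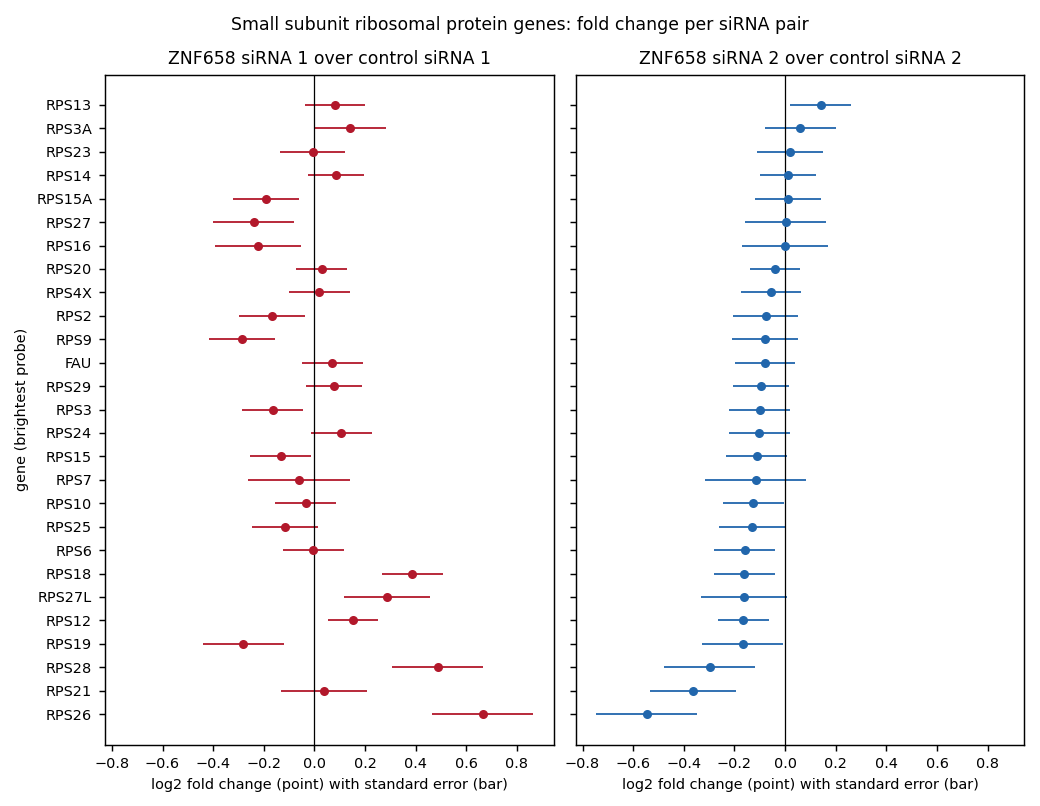
Log2FC of each of the 27 genes by its brightest probe (point) with its standard error (bar), for ZNF658 siRNA 1 over control siRNA 1 on the left and ZNF658 siRNA 2 over control siRNA 2 on the right. Genes are ordered by the siRNA 2 value: RPS26 lies at 0.66 on the left and −0.55 on the right, and most points on the right lie below 0.

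By position in the subunit, 10 of the 11 measured head genes lay below 0 with siRNA 2 (median −0.13), and 9 of the 15 body and platform genes (median −0.08). With siRNA 1 the head genes were split 5 above to 6 below (median −0.03) and the body and platform genes 8 above to 7 below (median 0.02). None of these genes was called. The head genes include RPS3, which lines the mRNA entry, RPS10, RPS12, RPS15, RPS16, RPS20 and RPS25, besides those given above. The body and platform genes include RPS6, the substrate of the S6 kinases, RPS14, the gene lost in the 5q- syndrome, RPS23 of the decoding centre, and FAU, whose product is split into a ubiquitin-like protein and a 40S protein. RPS14, RPS23 and FAU all lay between −0.08 and 0.08 in both pairs, and RPS6 had 0.00 with siRNA 1 and −0.16 with siRNA 2. RPS13 had the highest value with siRNA 2, 0.14 (SE 0.12).

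Of the zinc-binding proteins, RPS26, RPS27 and RPS29 were measured. RPS27, which occupies the body and binds zinc through a cysteine cluster, read 15.07, 14.46 and 15.05 by its brightest probe with ZNF658 siRNA 1, against 15.18, 15.08 and 15.03 with its control (log2FC −0.24, SE 0.16, adjusted P = 0.76). With siRNA 2 it read 15.10, 15.23 and 14.68, against 14.91, 14.97 and 15.12 with control siRNA 2 (log2FC 0.00, SE 0.16). In each pair 1 ZNF658 siRNA array, replicate 2 with siRNA 1 and replicate 3 with siRNA 2, stood below all the others. The dimmest of the 3 RPS27 probes went the other way with siRNA 1, at 13.93, 13.84 and 13.95 against 14.03, 13.31 and 13.03 with control siRNA 1, a log2FC of 0.45 (SE 0.21, adjusted P = 0.69).

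RPS29, a small head protein with a zinc finger, read 15.17, 15.06 and 15.39 by its brightest probe with ZNF658 siRNA 1, against 15.23, 15.16 and 15.01 with control siRNA 1. With siRNA 2 it read 15.21, 15.15 and 15.35, against 15.37, 15.39 and 15.23 with control siRNA 2. Both pairs overlapped, and the log2FCs were 0.08 and −0.10 (SE 0.11 each). Its other 3 probes had 0.12, −0.14 and 0.18 with siRNA 1 and −0.20, −0.14 and 0.17 with siRNA 2.

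Probes of 1 gene thus did not always move together. With siRNA 1, the probes of 7 of the 12 genes with several probes had mixed signs, 2 genes had all probes above 0 and 3 had all below. With siRNA 2, 4 genes were mixed, 2 were all above and 6 all below. The median gap between the highest and the lowest probe of a gene was 0.29 with siRNA 1 and 0.18 with siRNA 2, and the widest was 0.69, for RPS27 with siRNA 1. For comparison, the standard error of a log2FC had a median of 0.14 over the members.

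**Figure D2:**
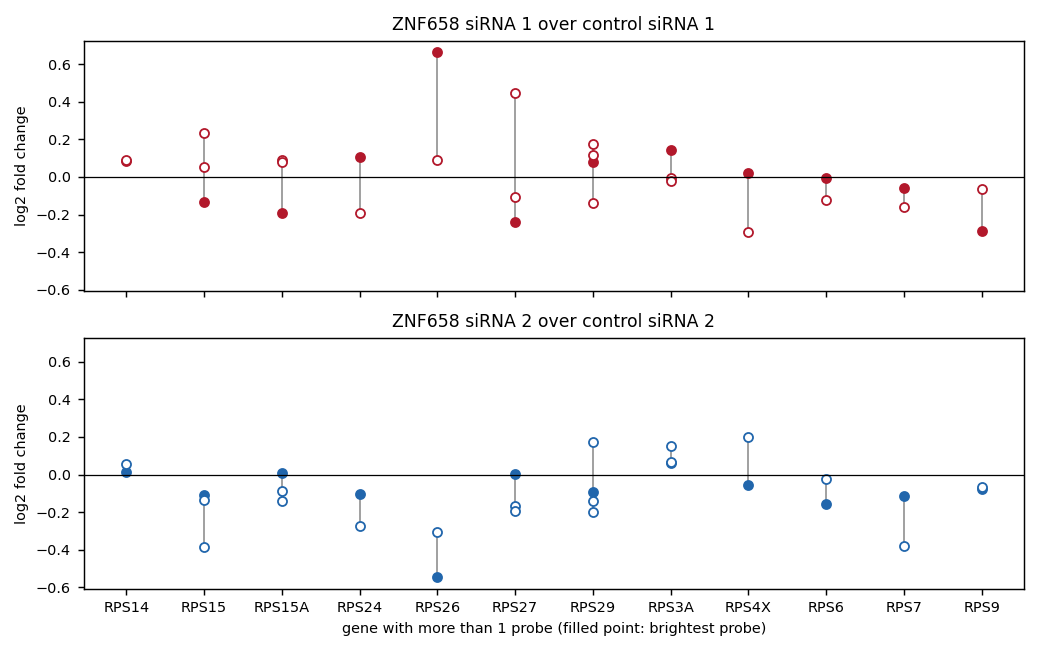
Log2FC of every probe of the 12 genes with more than 1 probe, for ZNF658 siRNA 1 over its control (top) and ZNF658 siRNA 2 over its control (bottom), with the brightest probe filled and a line joining the probes of a gene. The widest line is that of RPS27 with siRNA 1, 0.69 from end to end.

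Averaged over both siRNAs, no member probe was called, where 0.00675% of all tested probes were. Among the 27 genes, 9 lay above and 18 below 0, and 31 of the 45 probes lay below, against 49.1% of all tested probes. The genes had a median of −0.02, against 0.00 over all named genes. The genes furthest from 0 were RPS19 (−0.22, SE 0.11), RPS9 (−0.18, SE 0.09), RPS21 (−0.16, SE 0.12) and RPS3 (−0.13, SE 0.08), each with an adjusted P of 1 after rounding. RPS9 read 13.40, 13.43 and 13.40 with ZNF658 siRNA 2, against 13.50, 13.49 and 13.47 with control siRNA 2, a gap of −0.08 between groups that did not overlap. RPS3 read 14.33, 14.61 and 14.84 with ZNF658 siRNA 1, against 14.84, 14.73 and 14.70 with its control. With ZNF658 siRNA 2 it read 14.60, 14.54 and 14.53, against 14.61, 14.66 and 14.70 with control siRNA 2. The siRNA 1 pair of RPS3 overlapped and the siRNA 2 pair did not. For the mean of both siRNAs, the 95% intervals of 43 of the 45 probes lay within 0.5 of 0 on the log2 scale, and the widest bounds of any probe were −0.54 (RPS7) and 0.62 (RPS29).

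The difference between the siRNAs was tested as the siRNA 1 effect minus the siRNA 2 effect. No member was called, as was no probe of the table (0%). The genes with the largest differences were RPS26 (1.21, SE 0.28, adjusted P = 0.25), RPS28 (0.79, SE 0.25, adjusted P = 0.32), RPS18 (0.55, SE 0.17, adjusted P = 0.30) and RPS27L (0.45, SE 0.24, adjusted P = 0.52). The 95% interval for RPS26 ran from 0.61 to 1.81. Of the 27 genes, 17 lay above and 10 below 0, with a median of 0.07 against −0.01 over all named genes, and 30 of the 45 probes lay above, against 48.9% of all tested probes. At an unadjusted P under 0.05 there were 6 member probes, all higher, where 5.78% of all tested probes were higher. Both replicates 3 of the siRNA 2 pair stood apart from their groups. With them left out, 3 of the 45 member probes were called, against 9.68% of all tested probes. These were RPS26 (1.17, adjusted P = 0.024), RPS28 (0.95, adjusted P = 0.035) and RPS18 (0.66, adjusted P = 0.039). The choice of arrays rested on their likeness to the other group in these same data, so these calls are no independent check. With the 2 arrays of the siRNA 1 pair that lay closer to the other group left out, RPS26 alone was called (1.56, adjusted P = 0.049), against 0.117% of all tested probes. With array quality weights, which count arrays less the more they deviate from their group, 6 member probes were called in the difference, 3 with siRNA 1 and 2 with siRNA 2, against 18.4%, 5.68% and 4.05% of all tested probes. A rank product test called no member with siRNA 1, siRNA 2 or both, against 0.378%, 0.0811% and 0.0473% of all tested probes.

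The controls also differed from each other at these genes. Control siRNA 2 minus control siRNA 1 gave RPS26 a log2FC of 0.59 (SE 0.20, adjusted P = 0.16) and RPS28 0.46 (SE 0.18, adjusted P = 0.23). For RPS26 all 3 arrays of control siRNA 2 lay above all 3 of control siRNA 1. The largest value was that of the dimmest RPS15 probe, at 10.03, 9.96 and 10.10 with control siRNA 2, against 9.73, 9.30 and 9.10 with control siRNA 1 (0.65, adjusted P = 0.065). No member probe was called between the controls, where 2.03% of all tested probes were. In this comparison 5 member probes were higher and 2 lower without overlap, against 9.22% and 11.3% of all tested probes. Set against control siRNA 2, ZNF658 siRNA 1 had log2FCs of 0.08 for RPS26 and 0.02 for RPS28. With a control shared by both siRNAs, the control cancels from the difference, which becomes ZNF658 siRNA 1 against ZNF658 siRNA 2 directly. That difference was 0.62 for RPS26 (adjusted P = 0.15) and 0.32 for RPS28 (adjusted P = 0.43). With all 6 control arrays as 1 group it is by construction the same, and only the adjusted P changed (0.29 and 0.55). Supplier and siRNA cannot be told apart in it.

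**Figure D3:**
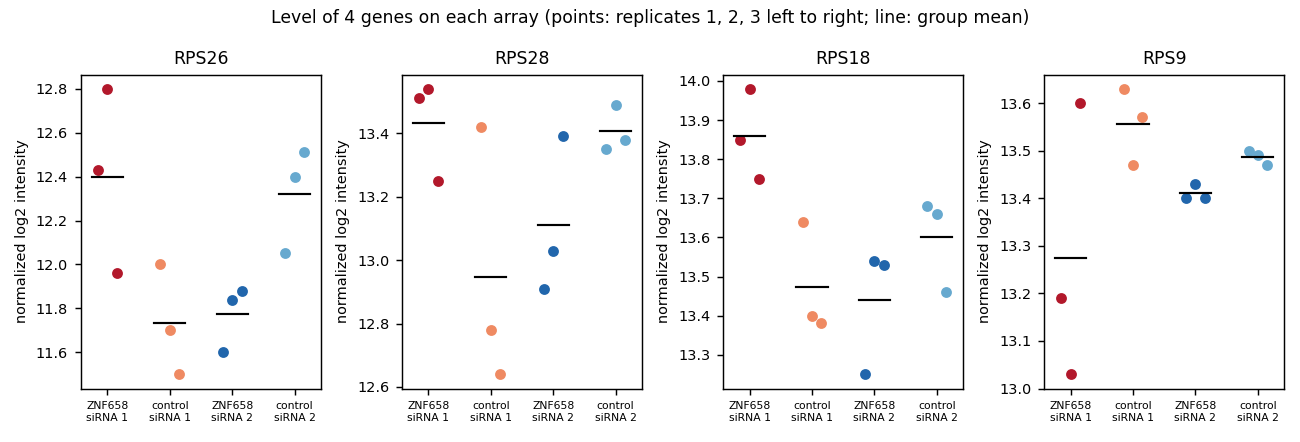
Normalized log2 intensity of RPS26, RPS28, RPS18 and RPS9 on each array (points, replicates 1 to 3 from left to right in a group; line, group mean; each panel has its own scale that does not start at 0). RPS26 averaged 12.40 with ZNF658 siRNA 1, 11.73 with control siRNA 1, 11.77 with ZNF658 siRNA 2 and 12.32 with control siRNA 2.

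The 18S rRNA is the RNA these proteins assemble on. The RPS28 probe, the brightest RPS26 probe and the dimmest RPS27 probe were lowest on the 4 arrays where the 18S probe was highest. These 3 probes were picked because of this, after the values were seen. The 18S probe read 9.58, 9.57 and 10.70 with ZNF658 siRNA 1 and 10.74, 14.55 and 14.74 with control siRNA 1. It read 13.99, 14.55 and 9.88 with ZNF658 siRNA 2 and 10.21, 10.06 and 11.56 with control siRNA 2. The 4 arrays with an 18S value of 13.99 or more, replicates 1 and 2 of ZNF658 siRNA 2 and replicates 2 and 3 of control siRNA 1, were also those with the 4 lowest RPS28 values, 12.91, 13.03, 12.78 and 12.64. The other 8 arrays read 13.25 or more for RPS28. The 18S probe itself had a log2FC of −3.40 in the first pair and 2.20 in the second (SE 1.07 each, adjusted P = 0.69 and 0.89). The same 4 arrays had the lowest values of the brightest RPS26 probe, 11.60, 11.84, 11.70 and 11.50, where the others read 11.88 or more. They also had the lowest values of the dimmest RPS27 probe, 13.31, 13.46, 13.31 and 13.03, where the others read 13.52 or more. The dimmer RPS26 probe read 8.35, 8.00, 8.25 and 8.14 on the same 4 arrays, but 8.33 on replicate 3 of control siRNA 2. The brightest RPS27 probe read 15.10, 15.23, 15.08 and 15.03 on them. Its lowest value, 14.46, was on replicate 2 of ZNF658 siRNA 1. The share of members and of all tested probes with the same split was not counted. The part of the 18S signal in the values of the 3 picked probes was not tested.

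The 13 brightest member probes, a number chosen after the values were seen, were lowest on the 2 arrays with the highest mean raw intensity. On replicate 2 of ZNF658 siRNA 1, with a mean raw intensity of 746, the median deviation of these probes from their own means was −0.22, and 9 of 13 lay below. On replicate 3 of ZNF658 siRNA 2, at 704, it was −0.18, and 11 of 13 lay below. The other 10 arrays had mean raw intensities of 462 to 589 and median deviations of −0.02 to 0.15. These are the arrays on which RPS19 and RPS27 stood apart above, and the part of array brightness in those values was not tested. Without both arrays the median over the 27 genes for both siRNAs was −0.01, against −0.02 with them.

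**Figure D4:**
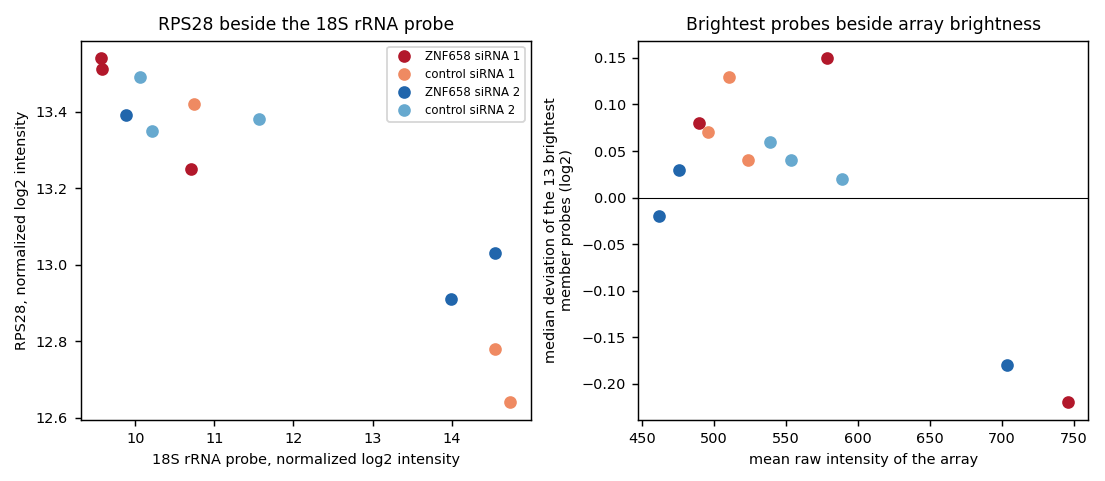
Left, RPS28 against the 18S rRNA probe on each of the 12 arrays, both as normalized log2 intensity: the 4 arrays with 18S at 13.99 or more have the 4 lowest RPS28 values. Right, the median deviation of the 13 brightest member probes from their own means against the mean raw intensity of the array: the arrays at 704 and 746 lie at −0.18 and −0.22.

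**Figure D5:**
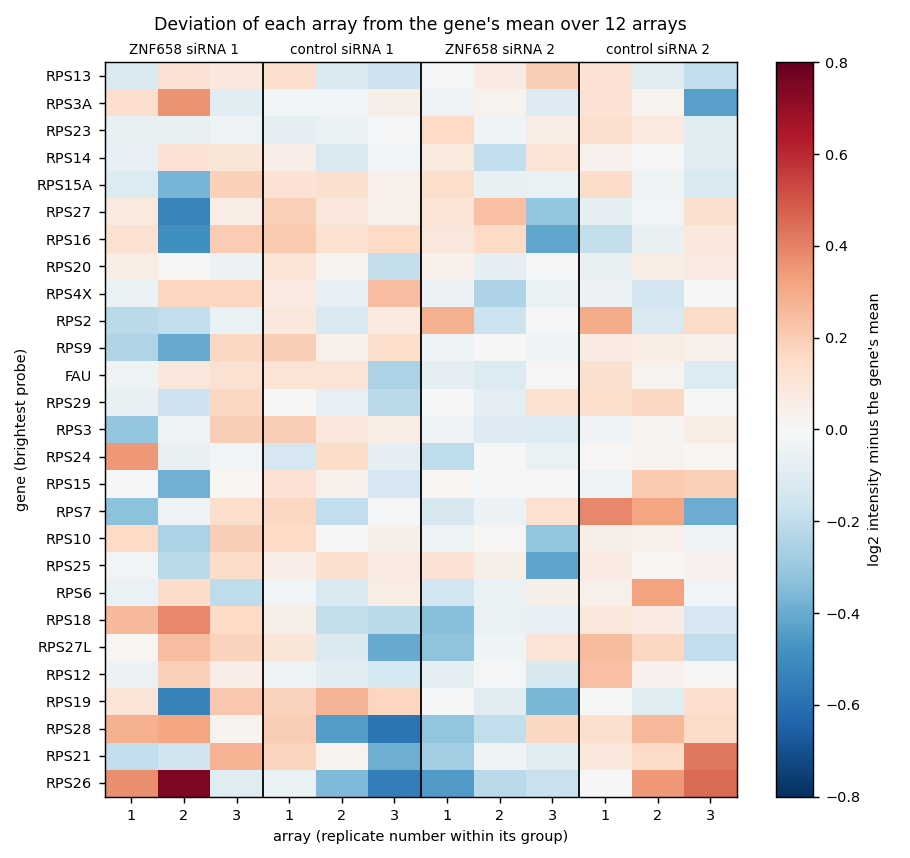
Log2 intensity of each of the 27 genes (rows, brightest probe, in the order of the siRNA 2 fold change) minus the gene's mean over the 12 arrays (columns, by group and replicate number). RPS26 is high on replicates 1 and 2 of ZNF658 siRNA 1 and on replicates 2 and 3 of control siRNA 2, and RPS19, RPS27 and RPS16 are low on replicate 2 of ZNF658 siRNA 1 and replicate 3 of ZNF658 siRNA 2.

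The genes with and without a pyrimidine tract at the annotated start were set side by side as a description, although 4 of the 7 without it, RPS7, RPS15, RPS26 and RPS28, held one close by. With siRNA 1, the 17 genes with a tract were split 8 above to 9 below 0, from −0.29 to 0.39 with a median of 0.00, and the 7 without had 5 above and 2 below, from −0.13 to 0.66 with a median of 0.08. With siRNA 2, the 17 had 6 above and 11 below (median −0.10), and the 7 had 0 above and 7 below (median −0.12). RPS19, with the ZTRE match, had values below 0 in both pairs, where a single array of the ZNF658 siRNA stood below all the others. Members without a match, RPS3, RPS9, RPS10 and RPS25 among them, were also below 0 in both pairs. RPS14, with the match to the shortened motif, had 0.08 and 0.01.

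Compared with the small subunit, the 42 measured large subunit genes had medians of 0.05 with siRNA 1 and −0.02 with siRNA 2, with 24 and 18 of 42 above 0, and none was called. Their largest values were those of RPL7 (0.49, SE 0.19) with siRNA 1 and RPL36A (−0.39, SE 0.24) with siRNA 2. Of the 42 measured factors that assemble the 40S subunit, 21 lay above 0 with siRNA 1 and 14 with siRNA 2, and none was called. NOC4L, a nucleolar protein needed for 40S assembly, had −0.51 (SE 0.24, adjusted P = 0.69) with siRNA 1. Of 16 other mRNAs known to carry a TOP tract, 6 lay above 0 with siRNA 1 and 7 with siRNA 2, and none was called. The difference between the small subunit genes and any of these lists was not tested.

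The spread between arrays of a group was smaller for the members than for the array at large. Their residual SD had a median of 0.188, against 0.267 over all tested probes. Probes of like brightness were not compared, so the smaller spread is not shown to be particular to the members. With 3 arrays a group, the 95% interval of a log2FC lay within 0.5 of 0 for 30 of the 45 probes with siRNA 1 and for 29 with siRNA 2. The missing calls thus leave room for changes of this size in the others, and do not show that the members were unchanged.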

How the data were processed

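RNA of Caco-2 cells, 12 samples in 4 groups of 3 as labelled, was hybridised to Illumina HT12 bead chips. With BeadStudio the authors exported intensity values and detection p-values of 47231 probes, which were deposited without normalization. A second deposited table holds log2 values that the authors transformed and normalized with a variance stabilizing method for 21105 probes. The submitters' processing notes name lumi, without a version. It served as an alternative.

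Background correction and quantile normalization used the neqc function of limma 3.58.1 in R 4.3.3 with statmod 1.5.0, at an offset of 16, with the level of the negative controls taken from those p-values. A probe was tested if, in 1 or more groups, its detection P was under 0.01 on each of the 3 arrays. This left 14804 probes, of which the platform's gene table names 11868. Quantile normalization gives every array the same distribution, so a shift of all transcripts together would not be seen. One limma fit (lmFit, eBayes with a trend) over 12 arrays gave each ZNF658 siRNA against the control of its own supplier, the mean and the difference of these effects, and control siRNA 2 against control siRNA 1, with Benjamini-Hochberg adjustment over all tested probes. Intervals are 95% intervals of this fit. The number of arrays limits the precision. The fit was tested on simulated data.

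The members and lists were chosen with earlier results of these data known. Full values are given for the 4 genes with the largest absolute change in each comparison, the zinc-binding proteins and RPS27L, and up to 3 genes of each other list are named. Some 40S genes are not reported here. Promoter letters come from RefSeq, GRCh38.p14. Alternatives were other normalizations, filters, weights and controls, the rank product test that the methods name, here with 50 permutations, the replicate block, and leaving out arrays.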

Additional observations from a re-analysis of the deposited data

How the results depend on the processing

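No member probe was called for both siRNAs under any of the alternatives run. In the main fit and with array quality weights, 0.00675% of all tested probes were called for both siRNAs. For most of the other alternatives that share was not counted. The count of called member probes moved with array quality weights, to 3 of 45 with siRNA 1 (RPS26, RPS28 and RPS18, all higher), 2 with siRNA 2 (RPS26 and RPS7, both lower) and 6 in the difference, where 5.68%, 4.05% and 18.4% of all tested probes were called. The weights ran from 0.156 for replicate 3 of control siRNA 2 to 2.40 for replicate 1 of ZNF658 siRNA 2. Without both arrays numbered 3 of the siRNA 2 pair, 3 were called in the difference, where 9.68% of all tested probes were. Without replicate 3 of ZNF658 siRNA 1 and replicate 1 of control siRNA 1, 1 was (RPS26), where 0.117% of all tested probes were. Leaving out 1 array at a time gave 0 member calls in all 4 comparisons. The share of all tested probes called in those fits was not counted, so these counts show nothing particular to the members. The rank product test called 0 member probes, and 0.378%, 0.0811% and 0.0473% of all tested probes with siRNA 1, siRNA 2 and both. The medians over genes moved from their values by less than 0.102, the SD between arrays of a group of the per-array median level, under each alternative. That SD exceeded the size of each median itself, so a move to 0 would also have stayed under it. The medians ran from −0.03 to 0.03 with siRNA 1, from −0.18 (median scaling) to −0.07 with siRNA 2, from −0.11 (median scaling) to −0.01 for both, and from 0.05 to 0.12 in the difference. With 1 array left out, they ran from −0.04 to 0.03, from −0.11 to −0.07, from −0.06 to −0.02 and from 0.04 to 0.11. RPS26 kept its sign with siRNA 1, with siRNA 2 and in the difference under each alternative. Its siRNA 1 value ran from 0.08 with control siRNA 2 as the control to 1.02 without those 2 arrays, and was called with array quality weights (0.78, adjusted P = 0.011). Its mean over both siRNAs, 0.06, was −0.23 with control siRNA 2 for both, −0.07 without the 2 arrays of highest mean intensity, and −0.04 to 0.17 with 1 array left out, below 0 without replicate 2 of ZNF658 siRNA 1 (−0.04) or replicate 1 of control siRNA 2 (−0.01). The replicate block gave 0 member calls in all 4 comparisons, and the share of all tested probes called with it was not counted. Residuals of arrays with the same number correlated at −0.59 to 0.40, and for 3 of 12 arrays the best match had the same number, so the numbers were not taken as pairs. Leaving out 2 arrays by intensity, or 2 by closeness to the other group, was chosen after seeing the data. The first changed no count of member calls, and its share of all tested probes was not counted. Leaving out both arrays numbered 3 of the siRNA 2 pair also rested on correlations in these same data.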

Other observations

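Some probes outside the members carry near copies of their genes, which short bead chip probes may not tell apart. RPS26P11, a copy of RPS26, read 13.82, 14.22 and 13.84 on the log2 scale with ZNF658 siRNA 1, against 13.70, 13.56 and 13.27 with control siRNA 1. With ZNF658 siRNA 2 it read 13.36, 13.98 and 13.74, against 13.92, 13.89 and 13.77 with control siRNA 2. The siRNA 1 pair did not overlap and the siRNA 2 pair did. The log2 fold changes were 0.45 (standard error 0.16, limma adjusted P = 0.69) and −0.17 (standard error 0.16, adjusted P = 0.96), on the same sides of 0 as those of the RPS26 probes. The brighter of the probes named RPSAP9, a copy of RPSA, had −0.03 and 0.12 (standard error 0.09 each), and RPSA itself was not matched by name.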
